A study of Mus musculus with 18 samples.

Results

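The cells described here are the neck cells of cluster 2, one of 4 clusters that the authors named neck cells in their single-cell map of the mouse gastric corpus. The members were taken from the deposited cell annotation: a cell belongs if its cluster label is 2. There were 347 such cells, among 1247 neck cells, 3993 annotated corpus cells and 4484 annotated cells in the whole series. The closest groups were neck cluster 0 (471 cells), neck cluster 7 (256 cells) and neck cluster 12 (173 cells). The isthmus, the zone of dividing progenitors above the neck, was held in clusters 3, 5, 6, 9 and 11 with 1285 cells.

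All mice were wild-type C57BL/6J males of 10 weeks, without any treatment. Corpus gastric units were dissociated in 2 pools, K and T, of 3 mice each, prepared by a different operator for each pool, so that pool and operator cannot be told apart. Live nucleated cells (Hoechst33342-positive, ToPro3-negative) were sorted into 384-well plates, 6 plates per pool, and profiled by Quartz-Seq2, which counts unique molecular identifiers (UMIs), one per captured RNA molecule. A smaller dataset of corpus and antrum held 45 further neck cells from 2 other pools. Cluster 2 had 236 cells of pool K and 111 cells of pool T, with a median of 22531 UMIs and 5754 detected genes per cell.

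Mucous neck cells line the middle of the corpus gland, between the isthmus and the chief cells of the base. They secrete the mucin MUC6 and trefoil factor 2, carry pepsinogen C, and are regarded as precursors of the zymogen-secreting chief cells. Immediate early genes, which recur below, encode short-lived transcription factors and phosphatases that cells transcribe within minutes of growth factor, cytokine or stress signals.

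By *Muc6*, *Pgc* and *Sox9*, cluster 2 matched its name. *Tff2*, also a neck marker, was lower there than in every isthmus cluster, as given below. *Muc6* (GRCm39 chr7:141213373-141241641, minus strand), the gel-forming gland mucin, stood at 746 CPM in pool K and 960 CPM in pool T. CPM are UMIs of a gene, summed over the cells of a cluster in a pool and scaled to library sizes adjusted by edgeR's TMM factors. Values by plate, sums of other cells' markers and values of the smaller dataset were scaled to the plain total of UMIs instead, and are called plain CPM. The acid-secreting parietal clusters 1 and 8 held *Muc6* at 17.7 to 41.5 CPM, and the isthmus clusters at 74.7 to 394 CPM. *Pgc* (chr17:48037760-48045407, plus strand), which encodes pepsinogen C, made up 97505 CPM in pool K and 104740 CPM in pool T. *Sox9* (chr11:112673009-112678586, plus strand), a transcription factor gene of gland cells, was at 442 and 475 CPM, above every isthmus cluster (221 to 346 CPM). These 3 markers were all higher in cluster 2 than in the isthmus and lower than in clusters 7 and 12, in both pools.

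Markers of cells outside the gland epithelium were close to 0 in cluster 2. The 4 leukocyte genes present summed to 0.549 plain CPM in pool K and 0 in pool T, and *Ptprc*, *Cd4* and *Tyrobp* had no UMI in either pool. The 5 stromal genes summed to 0.549 and 0 plain CPM, and the 3 endothelial genes to 0.915 and 0.402 plain CPM. RNA of the abundant parietal cells was present at a low and even level: *Atp4a*, *Atp4b* and *Kcnq1* summed to 395 and 347 plain CPM in cluster 2 and to between 302 and 485 plain CPM in the other neck clusters, while *Atp4b* alone was at 19837 and 18030 plain CPM in parietal cluster 1.

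**Figure D1:**
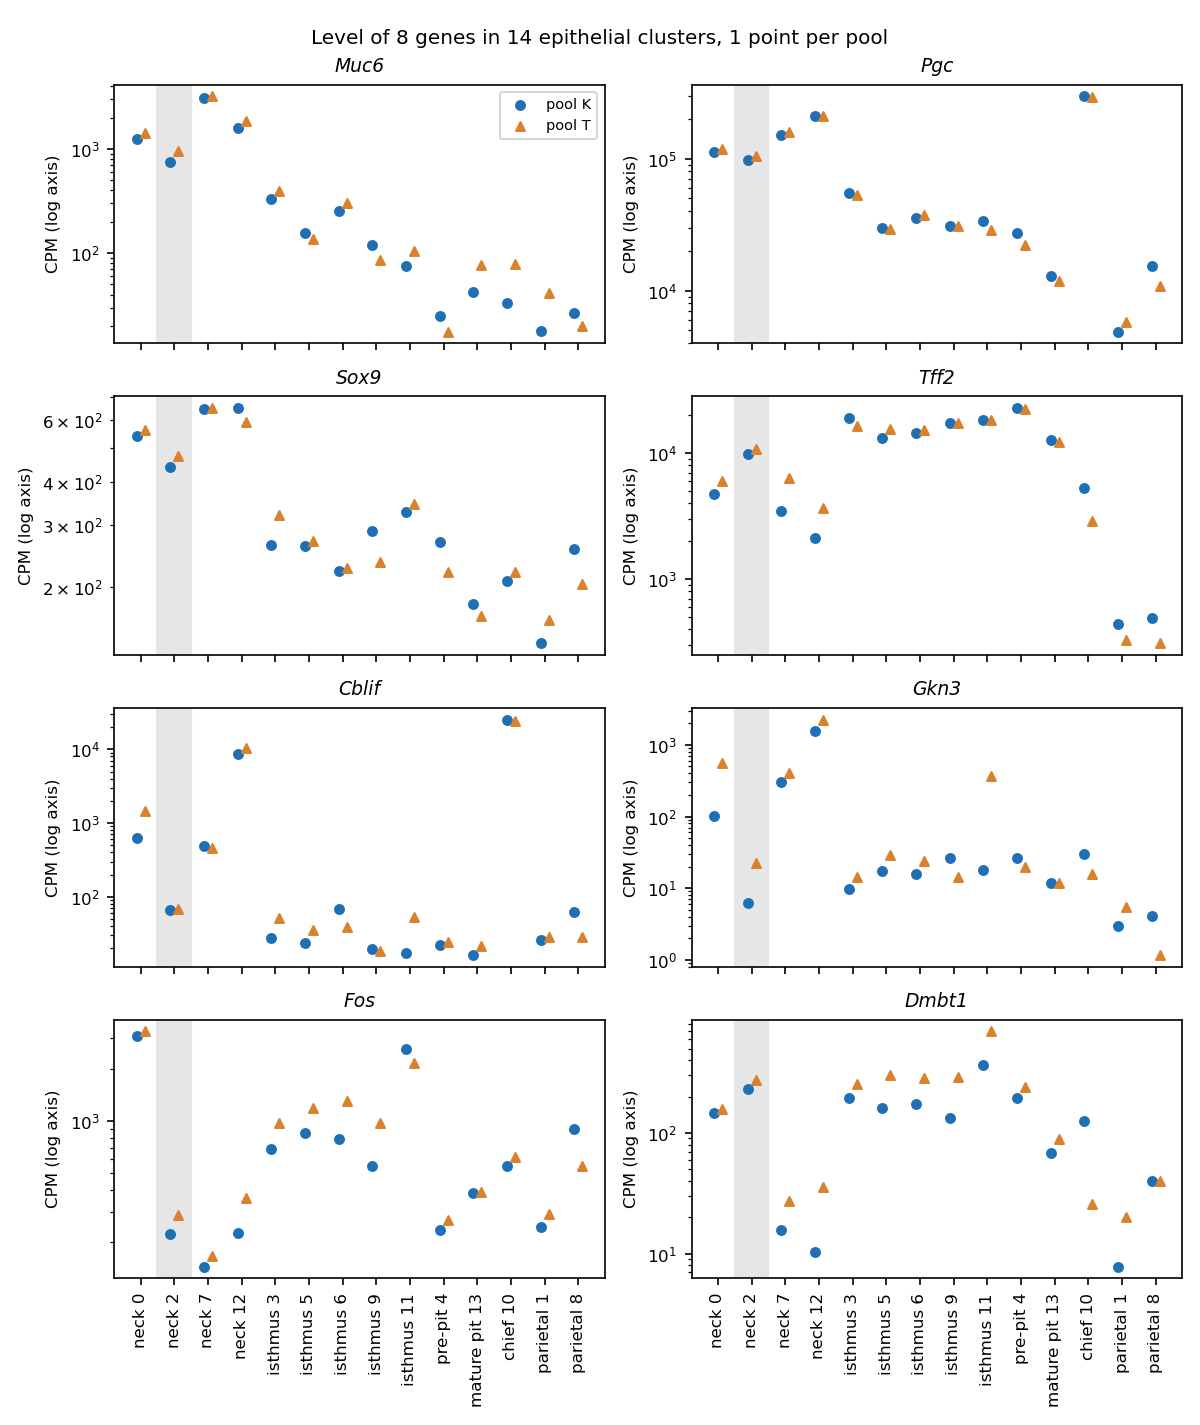
Levels of genes (CPM, log axis) in the summed UMIs of each cluster, with a point for each pool. The cluster 2 points for *Muc6*, *Pgc* and *Sox9* lie between those of the isthmus clusters and those of neck clusters 7 and 12.

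Within the neck, cluster 2 was the cluster with the lowest *Muc6* and the highest *Tff2*. *Muc6* was at 1249 and 1418 CPM (K, T) in cluster 0, 3099 and 3206 CPM in cluster 7, and 1583 and 1849 CPM in cluster 12. *Tff2*, the trefoil peptide of the neck mucus, ran the other way, at 9851 and 10846 CPM in cluster 2 against 4717 and 5975 CPM in cluster 0. It was at 3483 and 6356 CPM in cluster 7 and at 2112 and 3649 CPM in cluster 12, so both pools of cluster 2 stood above both pools of each of the other neck clusters. The isthmus clusters held more, between 13271 and 18877 CPM. The *Muc6* difference from cluster 0 was -0.65 ± 0.26 on the log2 scale, not past the threshold described below, and it passed with the pool as a block (-0.65).

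The same order was seen cell by cell for *Muc6*. The median cell of cluster 2 had 7.41 *Muc6* UMIs per 10000 (5th to 95th percentile 0.434 to 25.03), the median cell of cluster 0 had 11.5, of cluster 12 had 11.7 and of cluster 7 had 29.8. Only 12 of the 347 cells had no *Muc6* UMI. Cluster 2 thus overlapped broadly with clusters 0 and 12, and much less with cluster 7, whose 5th percentile was 10.5.

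To place whole gene groups, UMIs were summed per cluster and pool, and edgeR's quasi-likelihood model was fitted to 12922 genes. A gene is said to be called when its Benjamini-Hochberg adjusted p was under 0.05. The clusters had been drawn by the authors from these same counts, so a call describes how far 2 clusters stood apart against the spread between the 2 pools, and gives no independent evidence that they differ. Differences are given as log2 (cluster 2 minus the other side) ± SE, beside the CPM of each pool.

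Against cluster 0, 1756 genes were called (13.6% of those tested), 874 higher (6.76%) and 882 lower (6.83%) in cluster 2, and 1755 of them had the same direction in both pools. The even split (49.8% of calls higher) was not stable: the higher share was 34.7% to 39.1% without plate 1, 2, 3, 4 or 6 of pool K or plate 6 of pool T, and 28.95% with cells thinned to 10000 UMIs. The lower genes held the whole list of immediate early genes: 16 of 16 were lower in cluster 2, with a median log2 difference of -3.68 beside 0.04 over all genes. All 16 were also lower in each alternative fit run (every gene kept, pool as a block, fewer clusters, G1 cells only, thinned cells, plates as units, DESeq2 and each plate left out). *Fos* (chr12:85520658-85524047, plus strand), which encodes a subunit of the AP-1 transcription factor, was at 224 CPM in pool K and 286 CPM in pool T of cluster 2. In cluster 0 it was at 3103 and 3289 CPM, which gave a log2 difference of -3.66 ± 0.29.

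*Atf3*, a stress-induced transcription factor, showed the widest gap of the list after *Nr4a1*. It was at 18.2 and 32.2 CPM in cluster 2 and at 1352 and 1697 CPM in cluster 0 (-6.01 ± 0.62). *Nr4a1*, an orphan nuclear receptor gene, had 4.40 and 2.87 CPM in cluster 2 and 224 and 319 CPM in cluster 0 (-6.12 ± 0.58). *Egr1*, a zinc finger factor induced by mitogens, was at 122 and 157.9 CPM against 1672 and 1640 CPM, and *Jun*, the AP-1 partner of *Fos*, at 113 and 175 CPM against 1363 and 1703 CPM. No pool of cluster 2 came near a pool of cluster 0 for any of these genes.

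The gap was present in nearly every cell and not in a few. Summed over the 16 genes, the median cell of cluster 2 had 10.1 UMIs per 10000 in pool K and 10.2 in pool T, against 186 and 219 in cluster 0. The 5th percentile of cluster 0 was 76.0 UMIs per 10000, and 1 of 236 cells of cluster 2 in pool K and 3 of 111 in pool T lay above it. In clusters 7 and 12 the same count was 1 of 256 cells and 14 of 173 cells. Depth was similar, with medians of 22531 UMIs per cell in cluster 2 and 24232 in cluster 0. With cells thinned to 10000 UMIs all 16 genes were still called lower. The share of mitochondrial UMIs was similar too, at 5.67% and 4.70%, and its part in the result was not tested.

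**Figure D2:**
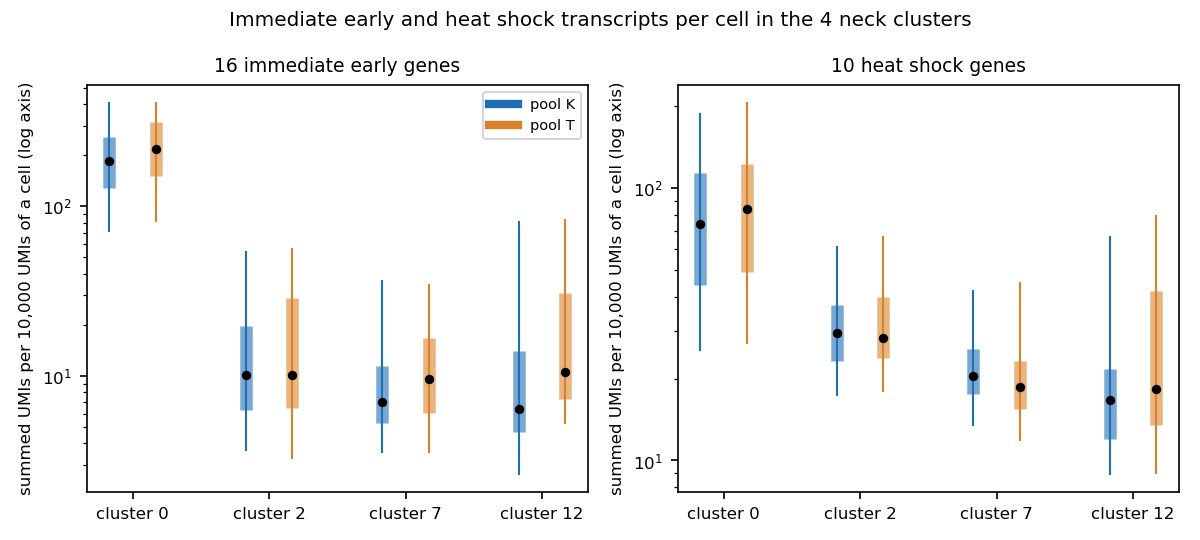
UMIs per 10000 in single cells, summed over 16 immediate early genes and over 10 heat shock genes, by cluster and pool. Dots are medians, thick bars the quartiles and thin lines the 5th to 95th percentiles; cluster 2 lies with clusters 7 and 12 for the immediate early genes, far below cluster 0.

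The heat shock list, of protein chaperones, had 7 of 10 genes lower and none higher than in cluster 0 (median -1.45). Against the other neck clusters it had none lower, with 3 of 10 higher than in cluster 7 (*Hsp90ab1*, *Hspd1* and *Hspe1*) and the same 3 and *Hspa8* higher than in cluster 12. *Hspa1a*, an inducible HSP70 gene, was at 119 and 230 CPM against 1369 and 1674 CPM in cluster 0. Its neighbour *Hspa1b* was at 210 and 428 CPM against 2168 and 2606 CPM in cluster 0. These near-identical copies can share reads, so their split is uncertain. *Hsp90aa1*, the inducible HSP90 gene, was at 189 and 173 CPM against 391 and 461 CPM in cluster 0 (-1.24 ± 0.13). Of 13 NF-kB pathway genes none was called against cluster 7 or cluster 12. Against cluster 0, 8 of the 13 were lower and none higher. Among them was *Nfkbia*, the inhibitor that NF-kB itself induces, at 47.7 and 50.9 CPM against 261 and 270 CPM. *Cxcl16*, a chemokine gene, was at 7.69 and 8.95 CPM against 47.6 and 66.8 CPM, and *Irf1*, an interferon-responsive factor, at 16.2 and 19.7 CPM against 151 and 102 CPM.

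The EGF receptor pathway is the route by which growth factor ligands drive the cells of the upper gland. None of its 16 genes tested was lower than in cluster 7 or 12, and *Btc* was higher than in both. *Egfr* and *Erbb2* were also higher than in cluster 12. Against cluster 0, 9 of the 16 were lower in cluster 2 and none higher. *Hbegf*, a ligand, was at 14.4 and 11.5 CPM against 90.5 and 137 CPM (-3.11 ± 0.35). The feedback inhibitors *Errfi1* (63.6 and 61.2 CPM against 167 and 195 CPM) and *Dusp6* (22.8 and 21.5 CPM against 45.8 and 47.0 CPM) were lower too. The receptor gene *Egfr* was not called against cluster 0, at 19.8 and 22.6 CPM against 17.1 and 16.6 CPM. *Hes1*, a Notch target that also counts among the lower lineage factors, was at 189 and 180 CPM against 710 and 650 CPM (-1.88 ± 0.15).

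Many immediate early genes carry a cyclic AMP response element in the promoter. The full palindrome TGACGTCA, which reads the same on both strands, was searched in RefSeq promoter windows (250 bases before to 50 after the start) of assembly GRCm38.p6, an older build than the GRCm39 of the counts. It was found in 2 of the 14 list members with a window, *Btg2*, an antiproliferative gene, and *Dusp1*, a MAP kinase phosphatase, and in 549 (2.03%) of 27025 gene symbols. The 40 bases around each match are shown because both genes were among those far lower in cluster 2, with the motif in capitals. They lie at chr1:134079298-134079337 and chr17:26508592-26508631, both read on the minus strand.
Btg2: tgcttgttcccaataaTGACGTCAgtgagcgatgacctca
Dusp1: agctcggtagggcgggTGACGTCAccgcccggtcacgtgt
*Btg2* was at 136 and 131 CPM in cluster 2 and 1007 and 1326 CPM in cluster 0 (-3.13 ± 0.29). *Dusp1* was at 19.0 and 39.0 CPM in cluster 2 and 331 and 601 CPM in cluster 0 (-4.15 ± 0.58). The matches are a description of these windows and do not show that a factor binds there.

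Pit cell genes were 3 of 9 higher and 1 lower than in cluster 0. *Psca*, a surface antigen gene of pit cells, was at 498 and 861 CPM against 275 and 206 CPM (1.497 ± 0.22). *Tff1*, the pit cell trefoil peptide, was at 594 and 1086 CPM against 320 and 363 CPM (1.29 ± 0.36). After thinning, a *Tff1* UMI was seen in 84.3% (K) and 94.6% (T) of cluster 2 cells, beside 85.9% and 92.5% in cluster 0. Parietal cluster 1 had shares of 73.7% and 85.9%, and parietal cluster 8 of 62.7% and 80.8%. The part of RNA from other cells in the *Tff1* level was not tested. The pit mucin *Muc5ac* (122 and 126 CPM against 71.1 and 30.9 CPM) was not called, with a log2 difference of 1.35 ± 0.49, and became called with the pool as a block, at 1.39. *Gsta3*, a glutathione transferase gene of detoxification, was among the 10 largest positive differences of the comparison, at 33.8 and 32.2 CPM against 5.88 and 7.54 CPM (2.24 ± 0.40), though glutathione transferase copies can share reads. *Aadac*, an esterase gene, was at 6.12 and 4.66 CPM against 0.767 and 1.51 CPM.

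Chief cell genes were lower in cluster 2 than in each of the other neck clusters: 4 of 7 against cluster 0, 5 of 7 against cluster 7 and 6 of 7 against cluster 12, with none higher. *Cblif* (chr19:11724918-11740811, plus strand), which encodes intrinsic factor, was at 66.2 CPM in pool K and 67.3 CPM in pool T of cluster 2. It was at 619 and 1434 CPM in cluster 0, 484 and 453 CPM in cluster 7, and 8662 and 10495 CPM in cluster 12. After thinning to 10000 UMIs per cell, 28.1% (K) and 30.6% (T) of cluster 2 cells had a *Cblif* UMI, beside 27.97% and 25.6% in parietal cluster 8 and 18.9% and 14.7% in parietal cluster 1, which both should lack it, and 15.9% and 22.9% in isthmus cluster 11. The cluster 2 shares lay within counting error of those of cluster 8 (95% exact intervals in pool T of 22.2 to 40.1% and 18.2 to 34.2%), and in pool T above that of cluster 1 (9.83 to 20.8%). *Cblif* was also called higher in cluster 2 than in the isthmus (31.5 and 39.3 CPM). The part of RNA from other cells in this level was not tested. Unthinned, the shares were 43.2% and 46.8% in cluster 2 (medians of 22588 and 22466 UMIs) 63.0% and 66.4% in cluster 8 (medians of 50751 and 51763 UMIs), 56.9% and 54.2% in cluster 1 (44634 and 47039 UMIs) and 37.1% and 45.9% in cluster 11 (30842 and 32204 UMIs).

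*Clps*, which encodes the lipase cofactor colipase, was at 1262 and 3536 CPM in cluster 2, against 4980 and 7812 CPM in cluster 0 and 50377 and 62497 CPM in cluster 12. *Cckar*, a cholecystokinin receptor gene, was at 59.5 and 50.9 CPM against 308 and 337 CPM in cluster 12 (-2.52 ± 0.12). *Bhlha15*, which encodes the secretory factor MIST1, was at 14.4 and 16.8 CPM against 51.6 and 76.2 CPM (-2.04 ± 0.23). *Gkn3* (chr6:87360238-87365917, minus strand), a gastrokine gene of neck cells, was likewise lowest in cluster 2 and highest in cluster 12. It was at 6.12 and 22.6 CPM in cluster 2, 102 and 551 CPM in cluster 0, 301 and 406 CPM in cluster 7, and 1569 and 2256 CPM in cluster 12. The order of clusters 0 and 7 differed between the pools. A *Gkn3* UMI was seen in 49 of the 347 cells of cluster 2.

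**Figure D3:**
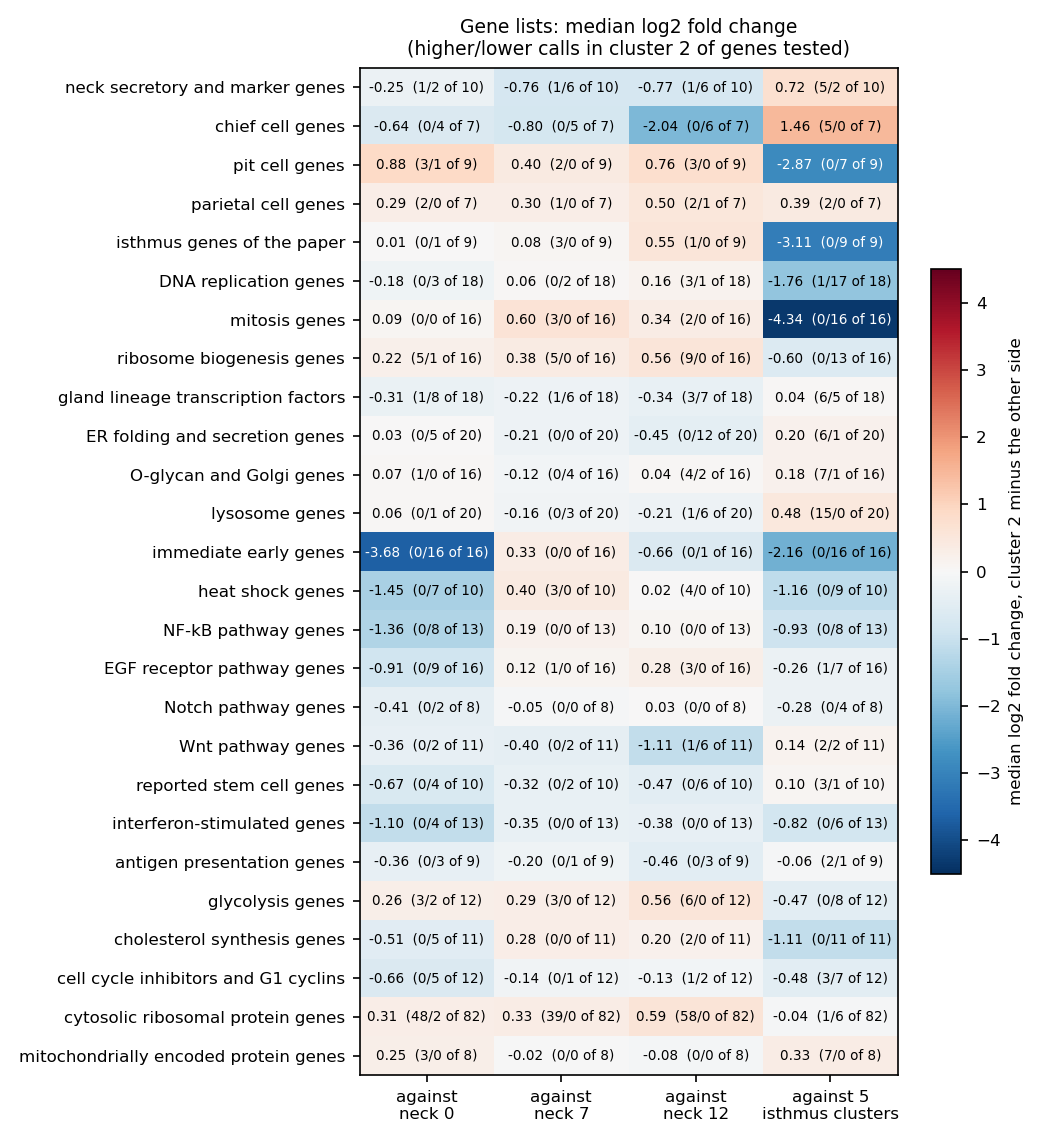
Median log2 difference (cluster 2 minus the other side) of each gene list in 4 comparisons, as a colour and a number. In brackets are the members called higher and lower in cluster 2, of those tested. Immediate early genes were all lower than in cluster 0 and in the isthmus, and chief cell genes were lower than in each of the other neck clusters and higher than in the isthmus.

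Set against the mean of the 3 other neck clusters, cluster 2 had 1995 called genes (15.4%), 1183 higher (9.15%) and 812 lower (6.28%). Of the 10 neck genes 7 were lower and *Tff2* was higher, at 9851 and 10846 CPM against 3437 and 5327 CPM (1.29 ± 0.20). *Gstm3*, a glutathione transferase gene whose close copies can share reads, was at 17.1 and 11.8 CPM against 2.43 and 2.55 CPM, and *Zbtb7c*, a zinc finger gene, at 6.44 CPM and 6.45 CPM against 1.36 and 0.934 CPM. The mean covers unlike clusters: 12 of 16 immediate early genes were lower than it, against 16, 0 and 1 lower than in clusters 0, 7 and 12 taken singly.

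Cluster 7 was the neck cluster most like cluster 2 by the count of genes: 944 were called (7.31%), 519 higher (4.02%) and 425 lower (3.29%). Here the immediate early list had 0 of 16 called by edgeR and by DESeq2, with a median of 0.33 and 4 genes at an unadjusted p under 0.05; *Fos* was at 224 and 286 CPM in cluster 2 and 145 and 166 CPM in cluster 7 (0.71 ± 0.28). Neck genes and O-glycan genes differed instead. Of 16 O-glycan and Golgi genes 4 were lower (*A4gnt*, *Galnt3*, *Galnt7* and *Gcnt1*) and none higher. The call of *Gcnt1* was not kept under every alternative. Of the 10 neck genes 1 (*Tff2*) was higher and 6 were lower: *Muc6* (-1.89 ± 0.27), *Pgc*, *Sox9*, *Gkn3*, *A4gnt* and *Agr2*. *A4gnt* is a member of both lists and is counted in each. *A4gnt*, whose enzyme caps the gland mucin glycans, was at 471 and 443 CPM against 1069 and 940 CPM, and *Agr2*, a disulfide isomerase gene needed for mucin folding, at 4444 and 4600 CPM against 8423 and 8575 CPM.

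*Sox9* was at 647 and 651 CPM in cluster 7, a log2 difference of -0.50 ± 0.12 that was no longer called when only cells in G1 were used. *Spdef* and *Foxa1*, transcription factor genes of secretory cells, were at 254 and 272 CPM against 390 and 400 CPM, and at 294 and 277 CPM against 398 and 348 CPM; *Spdef* too was not called with G1 cells only. *Galnt3*, which starts O-glycan chains, was at 151 and 160 CPM against 248 and 211 CPM. *Lox* (18.2 and 6.45 CPM against 90.5 and 83.8 CPM) and *Antxr1* (1.26 and 0.358 CPM against 5.52 and 7.42 CPM), which act on or bind collagen, were among the 10 most negative differences.

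The genes higher in cluster 2 than in cluster 7 included *Lgals2* (chr15:78735060-78739939, minus strand), a galectin gene, at 1283 and 1555 CPM against 176 and 197 CPM in cluster 7 (2.93 ± 0.19). It was at 2162 to 4185 CPM in the isthmus clusters. *Dmbt1*, a secreted scavenger receptor gene, was at 233 and 276 CPM against 15.8 and 27.6 CPM (3.66 ± 0.57). After thinning, 42.6% (K) and 48.6% (T) of cluster 2 cells had a *Dmbt1* UMI. The shares were 34.1% and 32.0% in cluster 0, 9.47% and 8.33% in cluster 12, and 66.7% and 75.2% in isthmus cluster 11. *Adh7*, a retinol-oxidizing dehydrogenase gene of the upper stomach, was at 33.3 CPM in both pools against 2.88 and 6.89 CPM in cluster 7. *Klf4*, a transcription factor gene of differentiating epithelium, was at 112 and 115 CPM in cluster 2, 21.4 and 23.9 CPM in cluster 7, and 23.4 and 27.2 CPM in cluster 12, but at 184 and 175 CPM in cluster 0 and 415 and 418 CPM in the isthmus mean. *Lrp2*, an endocytic receptor gene, had 232 and 68 UMIs in cluster 2 and 1 UMI in cluster 7. The ratio was 198 (95% exact counting interval 35.3 to 7853), and 277 of the 347 cells of cluster 2 had no *Lrp2* UMI. Of thinned cells, 17.02% (K) and 13.5% (T) in cluster 2 had an *Lrp2* UMI, beside none in cluster 7. The shares were 23.7% and 19.5% in cluster 0 and 18.9% and 20.8% in cluster 12. Among the neck clusters *Lrp2* was thus low in cluster 7, and not particular to cluster 2.

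Cell cycle transcripts were low in both clusters. *Mki67*, the proliferation antigen gene, was at 7.22 and 7.52 CPM in cluster 2 and 1.92 and 2.12 CPM in cluster 7, and *Stmn1*, which encodes the microtubule regulator stathmin, at 5.34 and 3.22 CPM against 0.960 and 2.12 CPM. Both were called higher, as were 3 of 16 mitosis genes, but neither was called when only G1 cells were used. *Mki67* also lost its call in 8 of the 12 fits that left out 1 plate, and *Stmn1* when cells were thinned. By the authors' phase calls 96.5% of cluster 2 cells were in G1 (335 of 347; 95% exact interval 94.0 to 98.2%), beside 96.1% in cluster 7, 94.1% in cluster 0 and 98.8% in cluster 12.

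Against cluster 12, the neck cluster nearest to chief cells in *Pgc* and *Cblif*, 2033 genes were called (15.7%), 1138 higher (8.81%) and 895 lower (6.93%), each with the same direction in both pools. *Pgc* was at 208380 and 209180 CPM in cluster 12 (-1.05 ± 0.12). *Muc6* was lower in cluster 2 by edgeR (-1.01 ± 0.26) and was not called by DESeq2. The most negative differences were those of *Gkn3* (-7.33 ± 0.89), *Cblif* (-7.16 ± 0.44) and *Nupr1*, a stress-response chromatin protein gene, at 6.28 and 4.66 CPM against 448 and 858 CPM. *Furin*, a proprotein convertase gene, was at 40.3 and 42.3 CPM against 1949 and 2805 CPM (-5.85 ± 0.30), and *Fes*, its neighbour tyrosine kinase gene, at 0.942 and 1.43 CPM against 70.3 and 78.2 CPM (-6.05 ± 0.30).

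Wnt pathway genes, read out by receptors and feedback inhibitors, were 6 of 11 lower and 1 higher against cluster 12. *Lgr5*, the R-spondin receptor gene, had 2 UMIs in cluster 2 and 56 in cluster 12, a ratio of 75.7 (19.99 to 640). *Axin2*, a feedback inhibitor, was at 1.57 and 3.58 CPM against 11.5 and 17.004 CPM, and *Rnf43*, which removes Wnt receptors, at 16.2 and 19.0 CPM against 36.5 and 38.1 CPM. *Smoc2*, a matrix protein gene often used beside *Lgr5*, was at 1.57 and 0.716 CPM against 62.5 and 91.1 CPM. *Cdkn1c*, which encodes the cell cycle inhibitor p57, was at 18.2 and 25.8 CPM in cluster 2, 36.3 and 62.0 CPM in cluster 0, 72.5 and 76.3 CPM in cluster 7, and 157.8 and 284 CPM in cluster 12.

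Genes of the secretory machinery were lower in cluster 2 than in cluster 12, with 12 of 20 ER folding and secretion genes lower and none higher. *Xbp1*, the transcription factor gene of the unfolded protein response, was at 808 and 780 CPM against 1488 and 1379 CPM (-0.85 ± 0.09). *Herpud1*, of ER-associated degradation, was at 256 and 337 CPM against 657 and 720 CPM, and *Manf*, a secreted ER stress protein gene, at 467 and 448 CPM against 648 and 572 CPM. *Hspa5*, the chaperone BiP, was at 1337 and 1185 CPM against 1975 and 1425 CPM (-0.43 ± 0.15). This difference was not called in the comparison as designed, but was called with the pool as a block (-0.43) and under some other alternatives.

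Genes for making ribosomes pointed the other way. Of 82 cytosolic ribosomal protein genes tested, 58 were higher in cluster 2 than in cluster 12 and none lower, with 48 higher and 2 lower against cluster 0, and 39 higher and none lower against cluster 7. With cells thinned to 10000 UMIs these counts were 46 higher, 10 higher with 2 lower, and 18 higher. *Rps2* was at 1309 and 1243 CPM in cluster 2, 998 and 1028 CPM in cluster 0, 981 and 991 CPM in cluster 7, and 832 and 835 CPM in cluster 12. Ribosome biogenesis genes were 9 of 16 higher and none lower against cluster 12, among them *Npm1* and *Ncl*, nucleolar protein genes, and *Myc*, their activator, at 52.0 and 49.1 CPM against 15.1 and 15.0 CPM. *Pgc* alone took 11.4% and 11.8% of all UMIs in cluster 2 and 20.5% and 19.6% in cluster 12, and its part in this result was not tested.

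Glycolysis genes were 6 of 12 higher and none lower than in cluster 12, such as *Eno1* (182 and 208 CPM against 129 and 116 CPM) and *Ldha* (522 and 550 CPM against 317 and 371 CPM). *Teddm3* (87.1 and 65.9 CPM against 6.25 and 2.04 CPM) was among the 10 largest positive differences. *Egfr* was higher, at 19.8 and 22.6 CPM against 8.85 and 10.9 CPM (1.09 ± 0.24). Of the 16 immediate early genes only *Atf3* was called (4 were lower with the pool as a block), lower at 18.2 and 32.2 CPM against 74.5 and 127 CPM, and that call was lost without plate 3 of pool K or plate 5 of pool T and when cells were thinned; *Fos* differed by -0.20 ± 0.28.

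Against the isthmus mean, 5812 genes were called (45%), 2928 higher (22.7%) and 2884 lower (22.3%), and 5783 had the same direction in both pools. All 16 mitosis genes and 17 of 18 DNA replication genes were lower, and all 9 isthmus genes of the study, a list chosen on these samples. The fit sets cluster 2 against the mean of the log2 levels of the 5 clusters, while the CPM given are arithmetic means over them, and the direction can differ: the last DNA replication gene, *Ung*, a uracil-DNA glycosylase gene, was called higher (0.65 ± 0.13) though its CPM were lower, at 19.6 and 17.9 against 25.6 and 24.5. *Top2a*, a topoisomerase gene of dividing cells, was at 3.61 and 3.94 CPM against 256 and 259 CPM, *Cdk1*, the mitotic kinase gene, at 6.44 and 5.01 CPM against 202 and 218 CPM, and *Mki67* at 7.22 and 7.52 CPM against 216 and 213 CPM. *Ndc80*, a kinetochore gene, had no UMI in cluster 2 and 1039 and 1451 UMIs in the 5 isthmus clusters, at least 52.9-fold lower when 3 UMIs per pool are taken as the floor.

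Of the 10 neck genes 5 were higher than in the isthmus, 2 were lower and 3 were not called, and of 7 chief genes 5 were higher and none lower. *Muc6* differed from the isthmus mean by 2.33 ± 0.18, *A4gnt* by 2.19 ± 0.12 and *Pgc* by 1.51 ± 0.08, while *Tff2* (-0.67 ± 0.21) and *Cd44*, a hyaluronan receptor gene (-1.52 ± 0.38), were lower. *Pga5*, a pepsinogen gene, was at 1309 and 1821 CPM against 383 and 388 CPM, and *Bhlha15* at 14.4 and 16.8 CPM against 3.57 and 4.20 CPM. *Xbp1* (808 and 780 CPM against 477 and 467 CPM), *Spdef* (254 and 272 CPM against 106 and 112 CPM) and *Creb3l1* (500 and 531 CPM against 296 and 304 CPM), all factors of secretory cells, were higher as well. Lysosome genes were 15 of 20 higher and none lower, by small amounts such as 0.48 ± 0.06 for the membrane protein gene *Lamp1* and 0.37 ± 0.07 for the protease gene *Ctsd*.

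Pit genes were 7 of 9 lower and none higher than in the isthmus. *Gkn2*, a gastrokine gene of pit cells, was at 362 and 482 CPM against 11959 and 8136 CPM (-4.51 ± 0.37), and *Muc5ac* at 122 and 126 CPM against 1822 and 1457 CPM. The immediate early genes were again 16 of 16 lower (median -2.16), with *Fos* at 1097 and 1316 CPM in the isthmus mean. Cholesterol synthesis genes were 11 of 11 lower (median -1.11), for instance *Sqle*, which encodes squalene epoxidase, at 42.2 and 29.0 CPM against 125 and 112 CPM. *Tgfa*, an EGF receptor ligand gene, was at 17.4 and 14.3 CPM against 32.0 and 28.01 CPM.

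By the authors' phase calls clusters 3, 5 and 6 held no cell in G1, so the comparison repeated with G1 cells kept only isthmus clusters 9 (19 cells) and 11 (153 cells). There 1742 of 12257 genes were called (14.2%) in place of 5812, with 928 higher (7.57%) and 814 lower (6.64%). The immediate early genes kept 16 of 16 lower, the chief genes 5 of 7 higher and the pit genes 6 of 9 lower. The DNA replication genes had 4 of 18 lower, the mitosis genes 5 of 12 and the cholesterol synthesis genes 4 of 11, so fewer members of these 3 groups were called there; which cells and how few they are differ from the full comparison as well.

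Where cluster 2 lay on the span from isthmus to the other neck clusters was measured over 8696 genes called between those groups, a comparison that holds no cluster 2 cell. On a scale where the isthmus mean is 0 and the mean of clusters 0, 7 and 12 is 1, cluster 2 had a median position of 0.69 (quartiles 0.42 and 0.95), and 6145 genes (70.7%) lay between 0 and 1. The median was 0.67 with isthmus cluster 11 alone as the start and 0.73 with clusters 0 and 7 alone as the end. Each of the other neck clusters, placed in the same way against the remaining ones, had a higher median: 0.84 for cluster 0, 1.09 for cluster 7 and 1.25 for cluster 12. The genes share libraries and are not independent, so these are descriptions without a test.

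**Figure D4:**
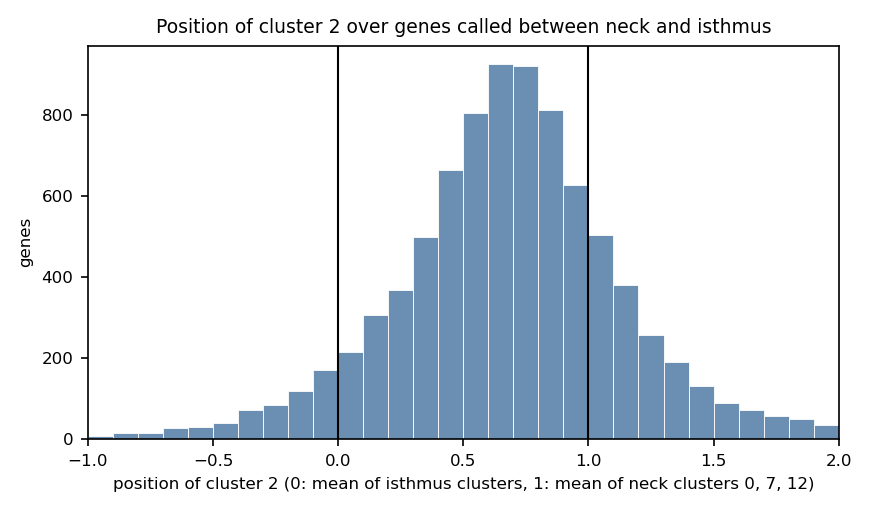
Number of genes (of 8696) by the position of cluster 2 on the log2 scale between the isthmus mean (0) and the mean of neck clusters 0, 7 and 12 (1), in bins of 0.1. Most genes lie between 0 and 1 with a median of 0.69; 57 genes below -1 and 142 at 2 or above are outside the axis.

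The share of cluster 2 among neck cells differed between the pools. In pool K it was 36.4% ± 6.6 (SD, n = 6 plates; lowest 29.5%, median 36.6%, highest 43.4%), and in pool T 18.2% ± 3.8 (n = 6 plates; lowest 11.1%, median 18.9%, highest 21.3%). No plate of pool T reached the lowest of pool K, and the difference of -18.2 points had a two-sided exact permutation p of 0.002165, the smallest that 6 plates against 6 can give. Counted among all kept cells of a plate, cluster 2 made up 12.1% ± 3.0 in pool K and 5.45% ± 1.5 in pool T (two-sided exact permutation p = 0.002165 for n = 6 plates against 6). Cluster 0 moved the other way, from 21.1% of neck cells in pool K to 55.6% in pool T, cluster 7 was at 27.1% and 13.7%, and cluster 12 at 15.4% and 12.5%. These shares are parts of the same total on a plate, so they cannot move independently and their tests are not separate results. Only cluster 2 was also counted among all kept cells. Over the 4 clusters and both denominators 5 such tests were made, and only cluster 12 did not separate (exact permutation p = 0.2056, n = 6 plates against 6); adjusted over the 5 tests, the others had p = 0.00271. Plates of a pool share their 3 mice, so these tests compare 2 cell suspensions and not mice or operators.

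**Figure D5:**
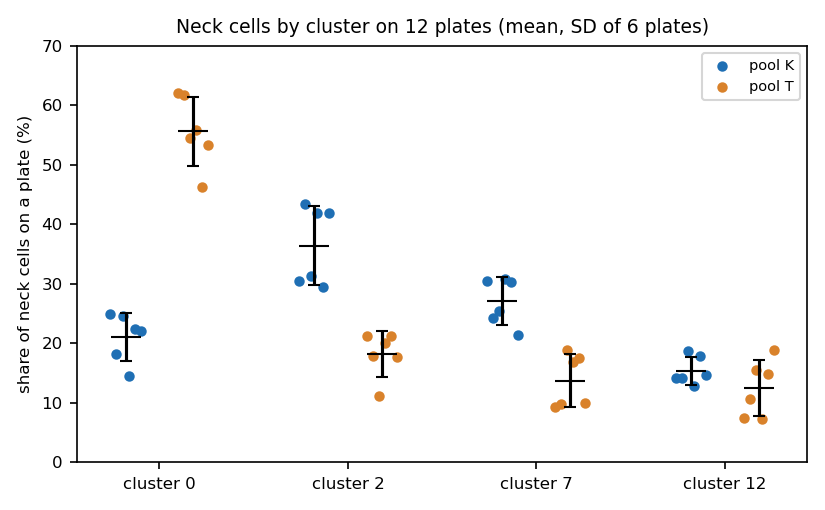
Share of neck cells (%) in clusters 0, 2, 7 and 12 on each of 12 plates, with mean and SD of the 6 plates of each pool. Cluster 2 lies at 29.5 to 43.4% on the plates of pool K and at 11.1 to 21.3% on those of pool T, while cluster 0 shows the opposite order.

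Within cluster 2 the pools were compared with plates as units, and 60 of 7571 genes were called between them (0.792%), 35 higher in T (0.462%) and 25 lower (0.33%). At an unadjusted p under 0.05 there were 860 genes (11.4%), and the 60 calls became 37 without plate 3 of pool K, 38 without plate 1 of pool T and 34 without plate 4 of pool T. *Muc6*, *Pgc*, *Sox9* and *Tff2* were not among them: *Muc6* ran from 554 to 1228 plain CPM, the scale of all plate values here, over the plates of pool K (median 839) and from 594 to 1323 CPM over those of pool T (median 1092). *Mt2*, a metallothionein gene, was higher in T, with 654 to 964 CPM (median 802) in K and 1057 to 2214 CPM (median 1589) in T, a log2 difference of 1.07 ± 0.12 (edgeR adjusted p = 2.53e-06). *S100a6*, a calcium-binding protein gene, did not overlap either, with 16.8 to 45.5 CPM (median 32.2) in K and 55.9 to 134 CPM (median 86.9) in T (edgeR adjusted p = 3.89e-05).

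*Clps* and *Tff1* were higher in T with overlapping plates, at medians of 1396 and 2865 CPM and of 733 and 1176 CPM (edgeR adjusted p = 0.00155 and 0.00266). After thinning, a *Tff1* UMI was seen in 84.3% (K) and 94.6% (T) of cluster 2 cells. The share was also higher in T in clusters 0, 7, 12 and 11 and in parietal clusters 1 (73.7% and 85.9%) and 8 (62.7% and 80.8%). The rise in *Tff1* detection was thus not confined to cluster 2, and the part of RNA from other cells was not tested. The genes lower in T included *Id4*, an inhibitor of basic helix-loop-helix factors, at 117 to 213 CPM (median 194) in K and 26.4 to 126 CPM (median 95.8) in T (edgeR adjusted p = 0.00189). *Klhl24*, a ubiquitin ligase adaptor gene, was at medians of 78.3 and 40.9 CPM (edgeR adjusted p = 0.00189). *G530011O06Rik*, a non-coding transcript, had 163 UMIs in K and 2 in T. The calls of *Aldh3a1*, *Trim56* and *Meis1*, which the naming rule also gave, were lost in 6, 8 and 11 of the 12 fits that left out 1 plate.

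Neck cells of the smaller dataset gave a view of other mice and of a clustering that did not split the neck. In its 45 neck cells (20 and 25 in the 2 pools) *Muc6* was at 2041 and 2813 plain CPM, beside 870 and 1077 plain CPM in cluster 2 (K, T), and *Pgc* at 111680 and 97898 plain CPM. *Cblif* was at 2472 and 1926 plain CPM against 77.2 and 75.6 in cluster 2, and *Gkn3* at 6352 and 7659 plain CPM against 7.14 and 25.3. *Fos*, at 1540 and 1673 plain CPM, lay between cluster 2 (261 and 321) and cluster 0 (3596 and 3705), and *Lgals2* was at 1038 and 789 plain CPM against 1496 and 1745 in cluster 2. That dataset mixed corpus with antrum and the tables were made separately, so no test was made across them. Per the paper's methods, its cells were also dissociated and sorted by another protocol. The part of that protocol in these levels was not tested.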

How the data were processed

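The deposited files hold UMI counts per gene and well, and the authors' table of kept cells with cluster, phase and the percent of mitochondrial UMIs and phase scores. Per the paper's methods, the authors used Drop-seq tools, FASTX-Toolkit and STAR with GRCm39 and Gencode M27 (the step each tool did is not given in the sources used here), removed cells with fewer than 2500 detected genes, and clustered in Seurat without integration. Per the labels, reads were demultiplexed with bcl2fastq 2.20.0.422. Whether counting used strand is not given in the sources used here, so overlapping and antisense genes cannot be told apart. The clusters are the authors' 20; no doublet caller was run on these sorted wells. The same 384 well barcodes recur on every plate, so a cell was identified by plate and barcode, and the counts of all 3993 kept cells equalled those of their plate. Plates held 10540256 to 12850942 UMIs.

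UMI counts were summed per cluster and pool over 14 epithelial clusters (28 sums, 14 residual degrees of freedom) and tested with edgeR 4.0.16 in R 4.3.3 (TMM, filterByExpr, quasi-likelihood F test, Benjamini-Hochberg over 12922 genes). The method was first run on simulated data with independent sums and no clustering of cells. That run therefore does not cover spread shared within a pool or clusters drawn from the same counts. Pool T against K used plate sums of cluster 2. DESeq2 1.42.0 and the other alternatives are in the closing section. Sums of UMIs are subject to counting error and intervals cover only that. Since a pool's clusters come from the same mice, pairing was checked: the deviations of clusters of a pool correlated with a median of 0.0987 over 91 pairs of clusters (0.1044 over the 13 pairs of cluster 2).

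The members and the 31 gene lists were chosen with earlier results of these data known. Genes named are list members, and the 10 largest positive and negative differences per comparison (5 between pools) among calls that went one way in both pools and whose higher side reached 10 UMIs in each pool. The text shows a part of the genes so given, and the part was picked with their values and their stability under the alternatives known, which left out many whose calls were less stable. The genes shown are therefore no measure of how stable the calls are. *Klf4*, *Cdkn1c* and *Lrp2* were followed across clusters after their values were seen.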

Additional observations from a re-analysis of the deposited data

Results flagged for a closer look

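Of 34 sets of 6 plates examined within cluster 2, 5 had a plate far from the others by Dixon's test at 95%, where chance alone gives about 1 in 20. *Aldh3a1* was at 129 plain CPM (scaled to total UMIs, as all plate values here) on plate 4 of pool T, with the next plate at 52.8 CPM. *Cblif* was at 185 CPM on plate 6 of pool K (next 67.5 CPM) and at 216 CPM on plate 3 of pool T (next 86.6 CPM). *Klhl24* was at 56.5 CPM on plate 1 of pool K, with the next lowest plate at 76.3 CPM. The share of cluster 2 among neck cells was 11.1% on plate 3 of pool T, with the next lowest plate at 17.8%.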

How the results depend on the processing

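With the pool as a replicate block, 2276 genes were called against cluster 0, 1364 against cluster 7, 2395 against cluster 12, 2464 against the mean of these 3 and 6209 against the isthmus, and among the genes followed the block changed no call other than those of *Muc6* and *Muc5ac* against cluster 0 and *Hspa5* against cluster 12. Cells thinned to 10000 UMIs gave 860 (249 higher, 611 lower), 498, 1187, 1146 and 3825, a lower depth by construction. Plates as units with a plate block gave 2959 against cluster 0, 1919 against cluster 7 and 3021 against their mean with cluster 12. G1 cells only gave 1742 against the isthmus, with 22 sums and 2 isthmus clusters, and *Mcm2* (0.16, from -0.70) and *Mcm3* (0.64, from -0.99) changed direction there. Keeping every gene with a UMI moved the higher share of calls to 65.8% against cluster 7 and 65.3% against cluster 12, and gave 126 genes between the pools, where thinning gave 26. Leaving out 1 plate at a time gave 1386 to 1763 genes against cluster 0, 800 to 943 against cluster 7, 1845 to 2020 against cluster 12, 1749 to 1942 against their mean, 5556 to 5797 against the isthmus and 34 to 56 between the pools (37 without plate 3 of K, 38 without plate 1 of T, 34 without plate 4 of T), and a share difference of -19.6 to -16.8 points. DESeq2 gave 1263, 763, 1680, 1551 and 4967. Of 234 gene results followed under the alternatives, which include genes left out of the text, 168 kept their direction and side of the threshold throughout and 66 did not. Those that did not include *Xbp1*, *Npm1*, *Cdkn1b*, *Tnfaip3*, *Aqp5*, *Basp1*, *Atp6v0d2*, *Pkm*, *Rps2* and *H2-K1* against cluster 0, *Bhlha15*, *Btc*, *Gcnt1*, *Hmgb2*, *Ldha* and *Pgk1* against cluster 7, and *Foxa3*, *Galnt6*, *Dnajb9* and *Hmgb2* against cluster 12. With G1 cells only, *Sox9* was not called against cluster 7, cluster 12, the mean of the 3 or the isthmus, *Spdef* not against cluster 7 and *Top2a*, *Cdk1* and *Tgfa* not against the isthmus, and *Sox9* was not called against cluster 12 after thinning. The cause of these changes was not tested. With 2 pools of 3 mice, spread between single mice is unknown.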

Other observations

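Some immune response genes differed between cluster 2 and cluster 0, where 6.83% of all genes tested were called lower. Of 13 interferon-stimulated genes tested, 4 were lower (*Irf1*, *Irf7*, *Irf9* and *Stat2*) and none higher, and of 9 antigen presentation genes 3 were lower, including the class I gene *H2-K1* at 608 and 606 CPM (K, T) against 714 and 778 CPM, a call lost with G1 cells only and with every gene kept. Cholesterol synthesis genes were 5 of 11 lower against cluster 0, such as *Hmgcs1*, an early enzyme of the pathway, at 140 and 109 CPM against 192 and 229 CPM. *Lrig1*, a feedback inhibitor of growth factor receptors and one of 10 reported stem cell genes, was at 65.5 and 80.6 CPM against 112 and 107 CPM; 4 genes of that list were lower and none higher.

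Of 8 mitochondrially encoded genes tested, 7 were higher in cluster 2 than in the isthmus. There 22.7% of all genes tested were called higher and 22.3% lower. An instance was *mt-Nd1*, a complex I subunit, at 7668 and 7705 CPM against 6387 and 6278 CPM. Of 8 Notch pathway genes tested, 2 were lower than in cluster 0 (*Hes1* and *Notch1*), where 6.83% of all genes tested were called lower. Against the isthmus, with 22.3% of all genes called lower, 4 were lower (*Hes1*, *Jag1*, *Jag2* and *Nrarp*). None of the 8 was higher in either comparison.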
